A study of Mus musculus with 4 samples.

Results

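Amino acid transporters were examined here through every probe set whose gene symbol in the platform annotation starts with Slc1a, Slc3a, Slc6a, Slc7a, Slc36a, Slc38a or Slc43a, leaving out Slc7a1 and Slc7a11 and setting no limit on signal. The rule gave 61 genes of the 18193 that the arrays read under a single symbol, and 120 probe sets of the 45037 that are not controls. They were measured on Affymetrix expression arrays of the mouse genome in dorsal skin at postnatal day 16, with 2 arrays from bitransgenic mice that overexpress deltaNp63alpha and 2 arrays from wild type mice (n = 2 per group throughout). DeltaNp63alpha is the p63 isoform of basal keratinocytes that lacks the amino-terminal transactivation domain. Within a group the labels count the arrays as biological replicates. The sources used here do not give strain, sex, litter, the promoter that drives the transgene or any inducing agent. Whole skin holds many cell types besides keratinocytes, and less RNA per cell and fewer cells of a type cannot be told apart in any value below. The values are probe set signals on a linear scale of array intensity.

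The families carry amino acids across membranes in different ways. Slc1 carriers couple glutamate, aspartate or small neutral amino acids to ion gradients. Most Slc7 proteins are light chains that reach the membrane only when bound to a heavy chain, Slc3a2 (also called CD98) or Slc3a1. Slc38 carriers bring glutamine and other small neutral amino acids into cells with sodium. Some Slc36 carriers move small neutral amino acids with protons, and Slc43 carriers let large neutral amino acids pass down their gradient. Slc6 is the neurotransmitter carrier family, and the symbol rule therefore also takes in carriers of noradrenaline, dopamine, serotonin and creatine, which are not amino acid carriers in the strict sense. In skin, amino acid uptake feeds the keratins of epidermis and hair and the cysteine of hair. Slc6a19os, Slc7a6os and Slc36a1os, with 4 probe sets, were taken in by their symbols alone, as they are genes on the strand opposite to a carrier.

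Trp63, the gene of the transgene, is read by 4 probe sets. The signal of 1451876_a_at was 10325 and 15246.7 on bitransgenic arrays, against 205.7 and 837.8 on wild type arrays, and that of 1452027_a_at was 4644 and 9919.8 against 161.3 and 473.4, while the other 2 probe sets overlapped between groups. None of the 4 passed the test over all probe sets, with adjusted p of 0.0613 and 0.0591 for the first 2. The median signal of an array lay between 97.5 and 112.8. Over the 27022 probe sets past a signal filter (described below), the correlation was 0.949 between the bitransgenic arrays, 0.918 between the wild type arrays and between 0.869 and 0.920 across genotypes. Bacillus spike-in controls averaged 1598 and 465 on bitransgenic replicates 1 and 2, against 1528 and 328 on wild type replicates 1 and 2, so spike-in signal followed replicate number and not genotype. Summed signals of 8 basal keratinocyte markers were 58648 and 87343 in bitransgenic skin, against 62909 and 71962 in wild type skin, with none of the 8 below the filter signal of 57.0 on all arrays.

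In limma's fit of log2(signal + 16) over all 45037 probe sets, no transporter probe set passed an adjusted p of 0.05, higher or lower in bitransgenic skin. Over all probe sets that fit called 0.0444% higher and 0.129% lower. At an unadjusted p under 0.05 there were 9 transporter probe sets higher, or 7.5%, against 4.53% of all probe sets, and 14 lower, or 11.7%, against 5.44%. Bitransgenic and wild type signals were fully separate for 32 transporter probe sets that were higher, or 26.7% against 20.6% of all, and for 39 that were lower, or 32.5% against 19.3%. Differences of 2-fold or more were seen for 10 higher and 18 lower transporter probe sets, 8.33% and 15%, against 4.41% and 5.95% of all. Several of these probe sets read the same gene in the same RNA, so they are not separate observations.

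A signal filter kept probe sets whose mean over the 4 arrays reached the 40th percentile, a signal of 57.0. Of the 120 transporter probe sets 78 passed it, and 42 of the 61 genes had at least 1 that did. A fit over only the probe sets that passed called 1 transporter probe set, 1425415_a_at of Slc1a1, which was lower. That fit called 0.555% of its probe sets lower and 0.207% higher. The median log2 difference, bitransgenic minus wild type, was -0.11 over the 120 transporter probe sets and 0.016 over all probe sets. The transporter median depended on the setting. It was -0.28 over the probe sets past the filter (all such probe sets 0.0080). With 1 probe set per gene, picked from those past the filter, it was -0.28 (all such genes 0.0053). With equal array medians it was -0.029 (all probe sets 0.094), but that setting shifts every difference by the same amount. By family the medians were -0.40 for Slc1, 0.31 for Slc3, -0.29 for Slc7, 0.34 for Slc6, 0.36 for Slc36, -0.25 for Slc38 and -0.62 for Slc43. Of the 21 Slc1 probe sets 19 had negative values, whereas 24 of the 36 Slc6 probe sets had positive values. Over all 45037 probe sets 21874 had negative and 23163 positive values. The Slc1 probe sets read only 7 genes, with 6 of them on Slc1a3, and the Slc6 probe sets read 21 genes.

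**Figure D1:**
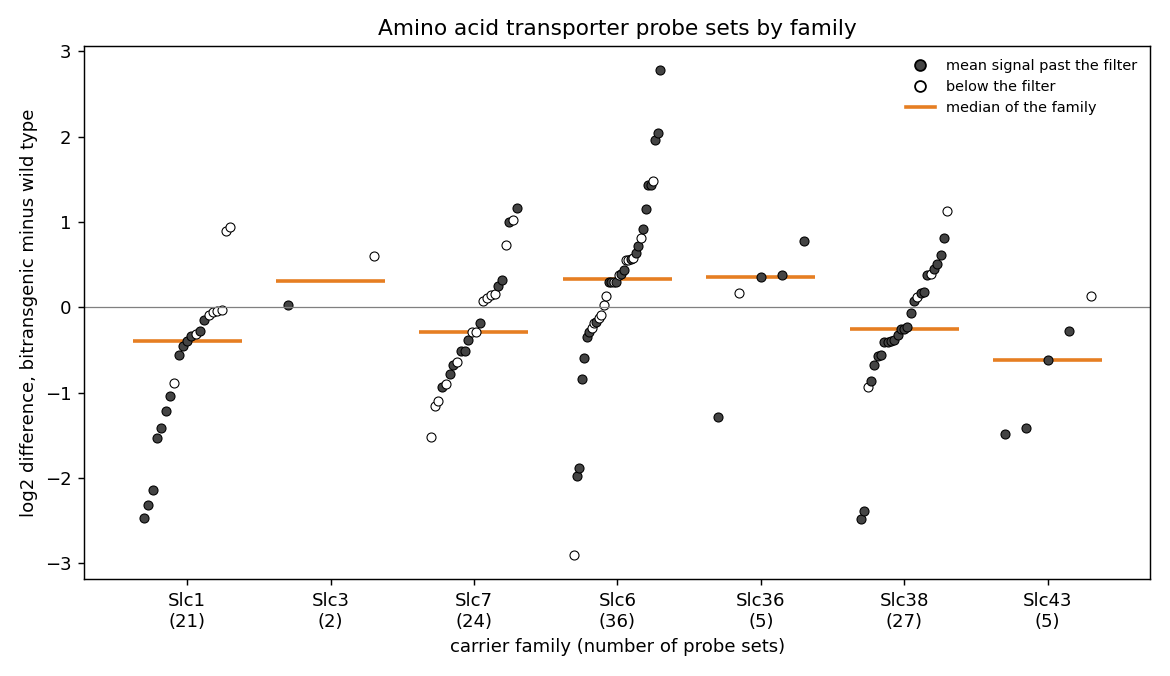
Log2 differences (bitransgenic minus wild type, vertical axis) of the 120 transporter probe sets, grouped by carrier family on the horizontal axis; each point is 1 probe set, filled where its mean signal passed the filter, and the bars are family medians. Values run from -2.90 to 2.78, with 19 of 21 Slc1 probe sets (7 genes) below 0 and 24 of 36 Slc6 probe sets (21 genes) above 0. Over all 45037 probe sets 21874 lie below 0 and 23163 above 0.

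Slc1a1, which carries glutamate, aspartate and cysteine into cells, had the smallest p of the set. Its probe set 1425415_a_at read 129.6 and 155.1 in bitransgenic skin, against 700.9 and 1051 in wild type skin, a 5.54-fold lower level (log2 difference -2.47 ± 0.34, SE). The adjusted p was 0.0766 over all probe sets and 0.0453 over those past the filter. With 1 probe set per gene, picked from those past the filter (13070 genes), it was 0.0216. That last fit called 1.58% of its genes lower and 0.75% higher. The gene therefore fell under the last 2 settings, which share the filter, and missed the threshold in the first. The other 2 probe sets pointed the same way. The signal of 1448299_at was 170.7 and 132.5 in bitransgenic skin, against 804.9 and 645.9 in wild type skin (-2.15 ± 0.33, adjusted p = 0.099). For 1460386_a_at it was 51.7 and 89.5 against 333 and 493.6 (-2.32 ± 0.44, adjusted p = 0.154). On all 3 probe sets both bitransgenic arrays lay below both wild type arrays, and the differences were alike within replicate number 1 (-2.30, -2.14 and -2.37) and within number 2 (-2.64, -2.16 and -2.27).

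Slc1a4, a carrier of alanine, serine, cysteine and threonine, was also lower on each of its 3 probe sets without passing the test. The signal of 1456003_a_at was 130.3 and 92.3 in bitransgenic skin, against 410.6 and 293.6 in wild type skin (-1.53 ± 0.39, 95% interval -2.48 to -0.58, adjusted p = 0.268). The log2 differences of 1423549_at and 1423550_at were -1.42 ± 0.49 and -1.21 ± 0.46. No array overlapped between groups on any of the 3.

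Hair markers moved in the same direction as these 2 genes. All 13 hair matrix and shaft markers were lower without overlap, with summed signals of 1567 and 7488 in bitransgenic skin, against 107923 and 174518 in wild type skin. All 9 inner root sheath markers were lower too, with sums of 2998 and 21852 against 121455 and 218434. Skeletal muscle markers summed to 19356 and 23925 against 213837 and 84199, with 9 of 10 lower without overlap, and fat cell markers to 22778 and 30282 against 51295 and 48836, with 6 of 6. Dermal fibroblast markers summed to 66162 and 85373 against 150262 and 124846, with 7 of 8 lower without overlap. No marker of these 5 lists was below the filter signal on all arrays. Over all probe sets 19.3% were lower without overlap. Not every list was lower. Median log2 differences were 0.075 for basal keratinocyte, 0.026 for suprabasal keratinocyte, 0.067 for sebaceous gland, 0.039 for T cell and 0.30 for endothelial markers. They were -0.020 for mast cell, -1.18 for Schwann cell and -1.37 for melanocyte markers. The highest were 1.09 for macrophage and myeloid markers and 0.97 for division markers. The part of any of these lists in the transporter values was not tested.

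The remaining Slc1 genes gave no call. Slc1a5, a glutamine and neutral amino acid exchanger, read 379.4 and 537.3 in bitransgenic skin, against 1740.8 and 506.5 in wild type skin (-1.03, 95% interval -2.42 to 0.35). The wild type arrays thus stood further apart than the groups, and without wild type replicate 1 the value was -0.16. Slc1a3, a glutamate carrier of glia that other cells also use, had 6 probe sets with values between -0.56 and -0.095. The 5 probe sets of Slc1a2, the main glutamate carrier of astrocytes, all had mean signals below the filter and fell on both sides of 0, between -0.89 and 0.94. Slc1a6 and Slc1a7, glutamate carriers known from cerebellum and retina, had values of -0.31 and -0.40, the first of them with no signal over 11.6.

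Promoter sequences are shown for the genes with several probe sets at an unadjusted p under 0.05 that were lower in bitransgenic skin, since more than 1 probe set gave each of them its direction. Of these only Slc1a1 was called under any setting. They are Slc1a1, Slc1a4 and Slc43a2, a carrier of large neutral amino acids described below. Slc6a2 met the same criterion with higher values and has no entry in the promoter table. Each run gives the 250 bases before the gene's first listed start, 5′ to 3′ on the strand of the gene, from RefSeq for build GRCm38.p6.
Slc1a1, chr19:28834885-28835134, plus strand: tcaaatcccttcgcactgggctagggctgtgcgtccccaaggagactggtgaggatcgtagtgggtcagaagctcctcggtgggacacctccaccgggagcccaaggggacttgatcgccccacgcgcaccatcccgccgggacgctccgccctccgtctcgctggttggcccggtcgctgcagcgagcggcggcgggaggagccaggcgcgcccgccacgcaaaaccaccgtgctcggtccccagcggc
Slc1a4, chr11:20332714-20332963, minus strand: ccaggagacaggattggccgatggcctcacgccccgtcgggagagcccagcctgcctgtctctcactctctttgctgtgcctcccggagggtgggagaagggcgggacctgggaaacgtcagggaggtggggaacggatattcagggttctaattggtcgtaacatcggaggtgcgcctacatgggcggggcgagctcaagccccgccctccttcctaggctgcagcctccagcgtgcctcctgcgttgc
Slc43a2, chr11:75531444-75531693, plus strand: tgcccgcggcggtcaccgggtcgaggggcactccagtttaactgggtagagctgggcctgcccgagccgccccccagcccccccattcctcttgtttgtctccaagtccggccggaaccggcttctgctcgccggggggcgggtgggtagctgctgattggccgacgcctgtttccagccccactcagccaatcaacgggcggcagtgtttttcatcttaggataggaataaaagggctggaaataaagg
Capitals were reserved for 3 motifs searched on both strands, and none of the 3 runs holds any. The motifs were TGATGNAA, the element read by ATF4 with C/EBP partners under amino acid shortage, CACGTG, the E-box bound by MYC, and CATG repeated after 6 bases of any kind, which resembles a p63 site. Of 44 transporter genes in the table, 2 held the first (4.55%, against 3.53% of 27025 promoters) and 0 held the third, against 0.507%. The E-box was held by 9 (20.5%, against 6.05%), namely Slc1a6, Slc1a7, Slc6a3, Slc6a16, Slc7a14, Slc36a1, Slc38a5, Slc38a7 and Slc43a1. Among them Slc1a6, Slc6a3, Slc6a16, Slc7a14 and Slc38a5 had no probe set past the signal filter, as was so for 19 of all 61 transporter genes. No transporter probe set passed the test over all probe sets, so that test cannot set these 9 apart from the other transporter genes. The GC content of the 3 printed runs was 70.4%, 64.8% and 62.8%, against a median of 52% over all promoters.

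Slc43a2 read 580.8 and 1001.1 in bitransgenic skin, against 2358.4 and 1814.8 in wild type skin, on 1439965_at (-1.42 ± 0.34, 95% interval -2.24 to -0.60, adjusted p = 0.238). On 1434308_at it read 121.5 and 189.5 against 378 and 546.7 (-1.49 ± 0.39, adjusted p = 0.273). Both probe sets separated the groups without overlap, and neither passed the test. The third, 1456940_at, read no more than 25.4 on any array. Slc43a1, another carrier of large neutral amino acids, read 194.5 and 124.4 against 186.6 and 199.6 (-0.28, 95% interval -1.25 to 0.69). Slc43a3, a relative that carries purine nucleobases, had a value of -0.62 (95% interval -1.43 to 0.19), with its arrays not overlapping. The lower values of the hair, muscle and fat lists given above stand beside these values as well.

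**Figure D2:**
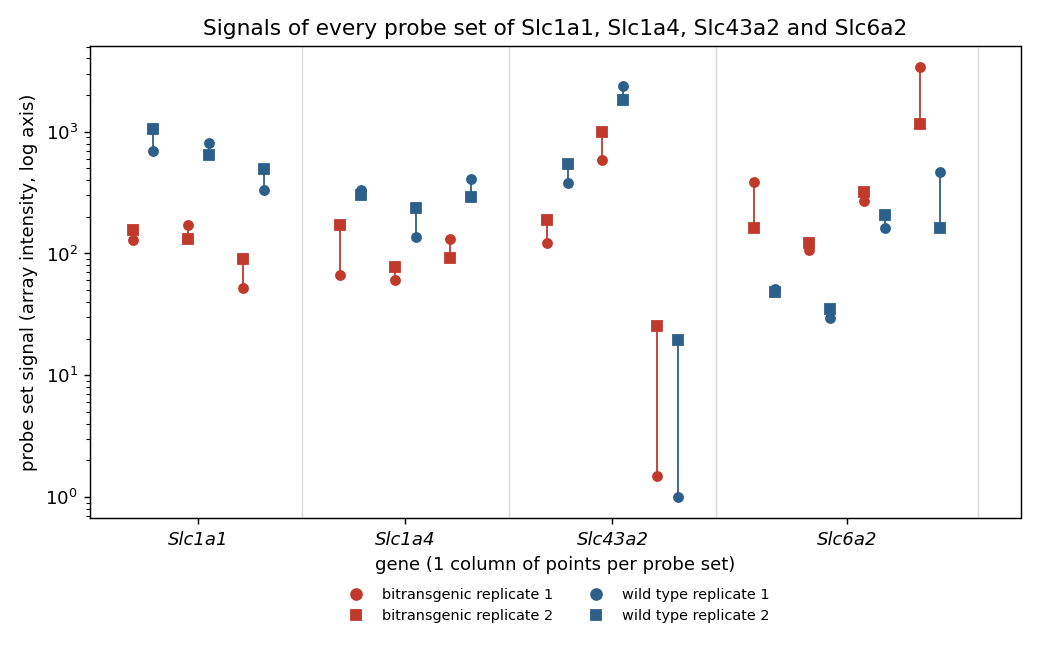
Signals (array intensity, log axis) of every probe set of Slc1a1, Slc1a4, Slc43a2 and Slc6a2; red points are bitransgenic and blue points wild type arrays, with circles for replicate 1, squares for replicate 2 and a line joining the arrays of a group. The groups do not overlap on any probe set of Slc1a1, Slc1a4 or Slc6a2, and overlap on the dim probe set of Slc43a2.

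None of the heavy and light chain probe sets passed the test. Slc3a2, the heavy chain shared by most light chains, read 4988 and 4231 in bitransgenic skin, against 4242.4 and 4827.3 in wild type skin. Its log2 difference was 0.022 with a 95% interval of -0.57 to 0.62, so a change of 2-fold in either direction lay outside the interval. Slc7a5, the light chain that takes up leucine and other large neutral amino acids, read 1521.1 and 1391.6 in bitransgenic skin, against 335.1 and 1210.2 in wild type skin (1.16 ± 0.57, 95% interval -0.20 to 2.53, adjusted p = 0.584). The groups did not overlap, but wild type replicate 2 came close to the bitransgenic arrays, and the difference was 2.13 within replicate number 1 and 0.20 within number 2. Without wild type replicate 1 it was 0.26, and without wild type replicate 2 it was 2.07 (adjusted p = 0.0906).

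The division marker list split the wild type arrays in the same direction as Slc7a5. Other lists did so too, among them hair, inner root sheath and melanocyte (wild type sums of 5858 and 19406 for the last). The 8 measured division genes summed to 14300 and 16421 in bitransgenic skin, against 4567 and 12522 in wild type skin. All had positive differences, 4 without overlap, and none was below the filter signal on all arrays. The part of dividing cells or of any other list in the Slc7a5 value was not tested. Slc7a8, a light chain with a wider range of neutral amino acids, read 437.7 and 1070.6 in bitransgenic skin, against 732.4 and 2390.6 in wild type skin (-0.93, 95% interval -2.48 to 0.62). Replicate 2 was the higher array of each group, and the value ran from -1.78 without wild type replicate 1 to -0.092 without wild type replicate 2. The light chains Slc7a6 and Slc7a7 exchange cationic for neutral amino acids, and Slc7a6 had values of -0.38 and -0.19 on its 2 probe sets. Slc7a7 read 122.7 and 139 in bitransgenic skin, against 51.4 and 64 in wild type skin, on 1447181_s_at and had a value of 0.25 on its other probe set, without overlap on either.

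The other Slc7 genes were mostly dim. Slc7a10, which exchanges small neutral amino acids and serine, read 171.8 and 193.1 against 316.6 and 283.2 (-0.67, 95% interval -1.49 to 0.15), with no overlap. Slc7a2, a carrier of arginine and lysine, was lower on all 4 probe sets, between -1.16 and -0.51, and only 1 of the 4 had a mean signal past the filter. Slc7a3, a related carrier, had a value of -0.65 on 1 dim probe set. Slc3a1, the heavy chain known from kidney and gut, and its light chain Slc7a9 read no more than 57.6 and 42 on any array. Slc7a12, Slc7a14 and Slc7a15 read no more than 20.6. Slc7a13 had 1 probe set at -1.52 and another at 0.73, both below the filter. Slc7a4, whose transport role is unsettled, had values of 0.32, -0.29 and 1.02 on 3 probe sets.

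The noradrenaline carrier Slc6a2 had the largest positive difference of the 120 probe sets. Its probe set 1460129_at read 3374.8 and 1161.2 in bitransgenic skin, against 462.9 and 160.6 in wild type skin (2.78 ± 0.64, 6.87-fold, adjusted p = 0.224). On this probe set replicate 1 was the brighter array of each group, as it was for the spike-in controls. The difference was 2.82 within replicate number 1 and 2.74 within number 2. Probe set 1421641_at read 389.1 and 161 against 50.6 and 47.8 (2.04 ± 0.53, adjusted p = 0.269). Of the remaining 2 probe sets, 1442449_at read 106.1 and 122 against 29.4 and 34.8 (1.43 ± 0.44). The other, 1447311_at, read 271.8 and 319.4 against 162.7 and 208.4 (0.63 ± 0.35). On these 2 probe sets replicate 2 was the brighter array of each group, unlike on 1460129_at. On all 4 the bitransgenic arrays were above the wild type arrays, and none of the 4 passed the test. Noradrenaline is taken up chiefly by sympathetic nerve endings, and the Schwann cell markers, which lie along nerves, ran the other way. Of 5 measured Schwann cell markers 4 were lower without overlap, with sums of 3945 and 7193 in bitransgenic skin, against 16981 and 11887 in wild type skin, and none was below the filter signal on all arrays. Macrophage and myeloid markers were higher, 7 of 8 without overlap, with sums of 20348 and 28731 against 15054 and 9654, none of them below that signal on all arrays. The part of these cells in the Slc6a2 values was not tested.

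Several Slc6 carriers of amino acids had higher values in bitransgenic skin with no overlap, all short of the threshold. Slc6a14, which takes up nearly all neutral and cationic amino acids, read 1041.8 and 1271.3 against 604 and 596.6 on 1420503_at (0.92 ± 0.26, adjusted p = 0.312). Its second probe set, 1420504_at, read 591.4 and 629.4 against 590.1 and 411.6 (0.30 ± 0.31), so bitransgenic replicate 1 lay just above wild type replicate 1. Slc6a9, a glycine carrier, read 312.8 and 591.4 against 165.2 and 134.4 on 1431812_a_at (1.44 ± 0.42) and 810.3 and 919.5 against 680.6 and 588.7 on 1417636_at (0.44 ± 0.27). Slc6a20a, a proline carrier, read 766.6 and 849.2 against 288.2 and 431.4 (1.16 ± 0.32, adjusted p = 0.292). On each of these probe sets both bitransgenic arrays read above both wild type arrays. Slc6a8, the creatine carrier, read 2980.2 and 3531.7 against 1838.2 and 2094.2 on 1448596_at (0.72 ± 0.25), while its other probe set overlapped between groups (0.30 ± 0.29) and had a value of 0.0042 without bitransgenic replicate 2.

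Slc6a19, a neutral amino acid carrier known from gut and kidney, ran the other way. Its probe set 1455442_at read 434.1 and 284.9 in bitransgenic skin, against 822.3 and 2498.9 in wild type skin (-1.98 ± 0.54, adjusted p = 0.292). The other, 1428595_at, read 513.3 and 64.2 against 417.2 and 1313.1 and overlapped. The opposite-strand gene Slc6a19os read 163 and 105.6 against 5.5 and 50.4 (1.97 ± 0.65, adjusted p = 0.383), the reverse of its neighbour. Slc6a13, a GABA and taurine carrier, read 5.8 and 15.1 against 82.9 and 367.9 (-2.90 ± 0.72, adjusted p = 0.251). Its mean on the log2 scale was below the filter, and the value depended on the pseudocount, at -4.07 with 1 and -1.76 with 64. Slc6a6, the taurine carrier, read 3769.6 and 2523.1 against 4423.5 and 3477.9 on 1437149_at (-0.35, 95% interval -1.07 to 0.37). This value was -0.63 without bitransgenic replicate 1 and -0.057 without bitransgenic replicate 2, and the second probe set past the filter had a value of 0.40. The serotonin carrier Slc6a4 had a value of -0.84 (95% interval -1.87 to 0.20), and the dopamine carrier Slc6a3 read no more than 48.6. The remaining Slc6 genes gave no call. They were the glycine carrier Slc6a5, the proline carrier Slc6a7, the GABA carriers Slc6a11 and Slc6a12, and Slc6a15, Slc6a16, Slc6a17, Slc6a18, Slc6a20b and Slc6a21. Slc6a21 read 54.4 and 68.3 in bitransgenic skin, against 23.1 and 3.6 in wild type skin (1.48 ± 0.49), and the other 9 genes had values between -0.59 and 0.81.

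No Slc38 or Slc36 probe set passed the test. Slc38a2, the glutamine and alanine carrier that ATF4 is known to raise when amino acids run short, read 8491 and 8340.7 in bitransgenic skin, against 6841.3 and 6086.1 in wild type skin (0.38, 95% interval -0.20 to 0.97). Its 1429593_at gave 0.45 and its dimmer 1429594_at -0.25. Slc38a1, a close relative, read 288.4 and 219.7 against 121.7 and 152.8 (0.81, 95% interval -0.11 to 1.74) and had 0.50 on its other probe set. Both genes were thus higher on their brightest probe set, with no overlap between groups. Slc38a4 was lower on both probe sets (-0.86 and -0.68), the second with overlap. Slc38a9, which senses arginine on the lysosome, had 7 probe sets between -0.57 and 0.18, all past the filter.

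Slc38a10 and Slc38a3 showed probe sets of 1 gene that disagreed. Of 7 probe sets of Slc38a10, which carries glutamine among other amino acids, 1434617_x_at read 16.1 and 27.8 in bitransgenic skin, against 190.5 and 195.4 in wild type skin (-2.48 ± 0.45, adjusted p = 0.141). The 3 brightest, 1456241_a_at, 1427294_a_at and 1427295_at, had values of -0.41, -0.56 and -0.32, and the other 3 had values between 0.076 and 0.61. A probe set of suffix _x_at can read relatives of its gene. Slc38a3, a glutamine carrier of liver and kidney, read 22 and 142 against 376.5 and 406.8 on 1418706_at (-2.39 ± 0.69, adjusted p = 0.314) and had 1.13 on a dim second probe set. Slc36a4 had a value of 0.36 (95% interval -0.26 to 0.97), the lysosomal Slc36a1 0.38 and Slc36a2 -1.28 (95% interval -2.72 to 0.15). The values were 0.77 for Slc36a3, 0.16 for Slc36a1os, 0.12 for Slc38a5, -0.94 and -0.068 for Slc38a6, and -0.23 for Slc38a7. Slc7a6os, which codes for a protein unrelated to the carrier on the other strand, had values of -0.51 and -0.79 without overlap.

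**Figure D3:**
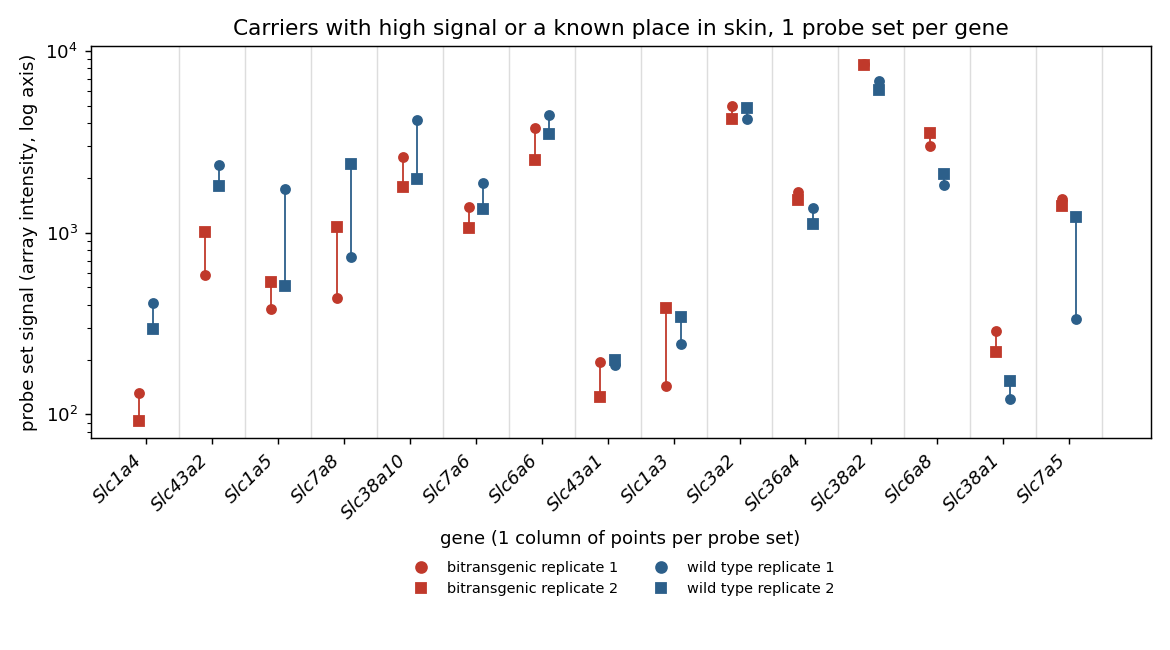
Signals (array intensity, log axis) of 15 carriers chosen for high signal or a known place in skin, 1 probe set per gene, ordered by log2 difference from the lowest at the left; red points are bitransgenic and blue points wild type arrays, with circles for replicate 1, squares for replicate 2 and lines joining a group. Signals of different probe sets cannot be set against each other; within a gene, the wild type arrays of Slc1a5, Slc7a8 and Slc7a5 stand far apart, while those of Slc3a2 and Slc38a2 lie close.

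The arrays of a genotype differed from each other for many transporters. Of the 78 probe sets past the filter, 10 differed by 2-fold or more between the bitransgenic arrays, or 12.8%, against 15 between the wild type arrays, or 19.2%. Over all 27022 probe sets past the filter these shares were 8.77% and 16.1%. Slc7a5, Slc7a8 and both probe sets of Slc6a19 were higher in wild type replicate 2 by 1.80, 1.69, 1.58 and 1.62 on the log2 scale. Slc1a5 and the brightest probe set of Slc38a10 were lower there, with differences of -1.75 and -1.06. For these genes the group difference cannot be read apart from the choice of wild type animal. The hair, division and melanocyte lists were also higher in wild type replicate 2 than in replicate 1, with melanocyte sums of 19406 and 5858. The skeletal muscle sum was lower there.

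Other carriers and pathways of amino acids were read through 1 probe set per gene, here without the signal filter, taking the probe set of highest mean. Over 18193 genes read in this way the median was 0.011, with 0.0879% called higher and 0.269% called lower. Of 19 other amino acid and peptide carriers none passed, with a median of -0.015. The smallest p values were those of Slc25a13, the mitochondrial aspartate and glutamate exchanger, with 911.3 and 1067.5 against 211.9 and 365.9 (1.76 ± 0.35, adjusted p = 0.168), and of Slc15a3, a lysosomal histidine and peptide carrier (1.67 ± 0.38, adjusted p = 0.222). Ctns, the lysosomal cystine exporter, chosen after its value was seen, read 255.3 and 426.2 against 609.4 and 1798.3 (-1.62 ± 0.54).

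Of 26 genes of the ATF4 pathway, the response to amino acid shortage, none passed over all probe sets, 17 had positive values and the median was 0.32. Chac1, an enzyme that breaks down glutathione, read 374.1 and 422.9 in bitransgenic skin, against 1879.1 and 1866.9 in wild type skin (-2.19 ± 0.25, adjusted p = 0.052). Psph, the last enzyme of serine synthesis, read 7932.2 and 6022.9 against 1566.6 and 1912.9 (1.99 ± 0.27, adjusted p = 0.0684). Over the probe sets past the filter Chac1 fell (adjusted p = 0.032) and Psph rose (adjusted p = 0.039). These 2 reported ATF4 targets thus stood on opposite sides. On the list as a whole, 14 of the 26 genes were higher without overlap and 3 were lower without overlap. Over all probe sets 20.6% were higher and 19.3% lower without overlap. Psat1, the enzyme before Psph and chosen after its value was seen, had a value of 1.66 ± 0.33 (adjusted p = 0.172). Atf4 itself, chosen in the same way, read 5071.3 and 5857.5 against 4155.4 and 4186.1 (0.38 ± 0.24). Of 27 genes of mTORC1 and amino acid sensing none passed, with a median of 0.027. Sesn3, a sestrin, and Rragd, a GTPase of the lysosomal complex that recruits mTORC1, had values of -1.11 ± 0.25 (adjusted p = 0.218) and -2.58 ± 0.76 (adjusted p = 0.325).

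**Figure D4:**
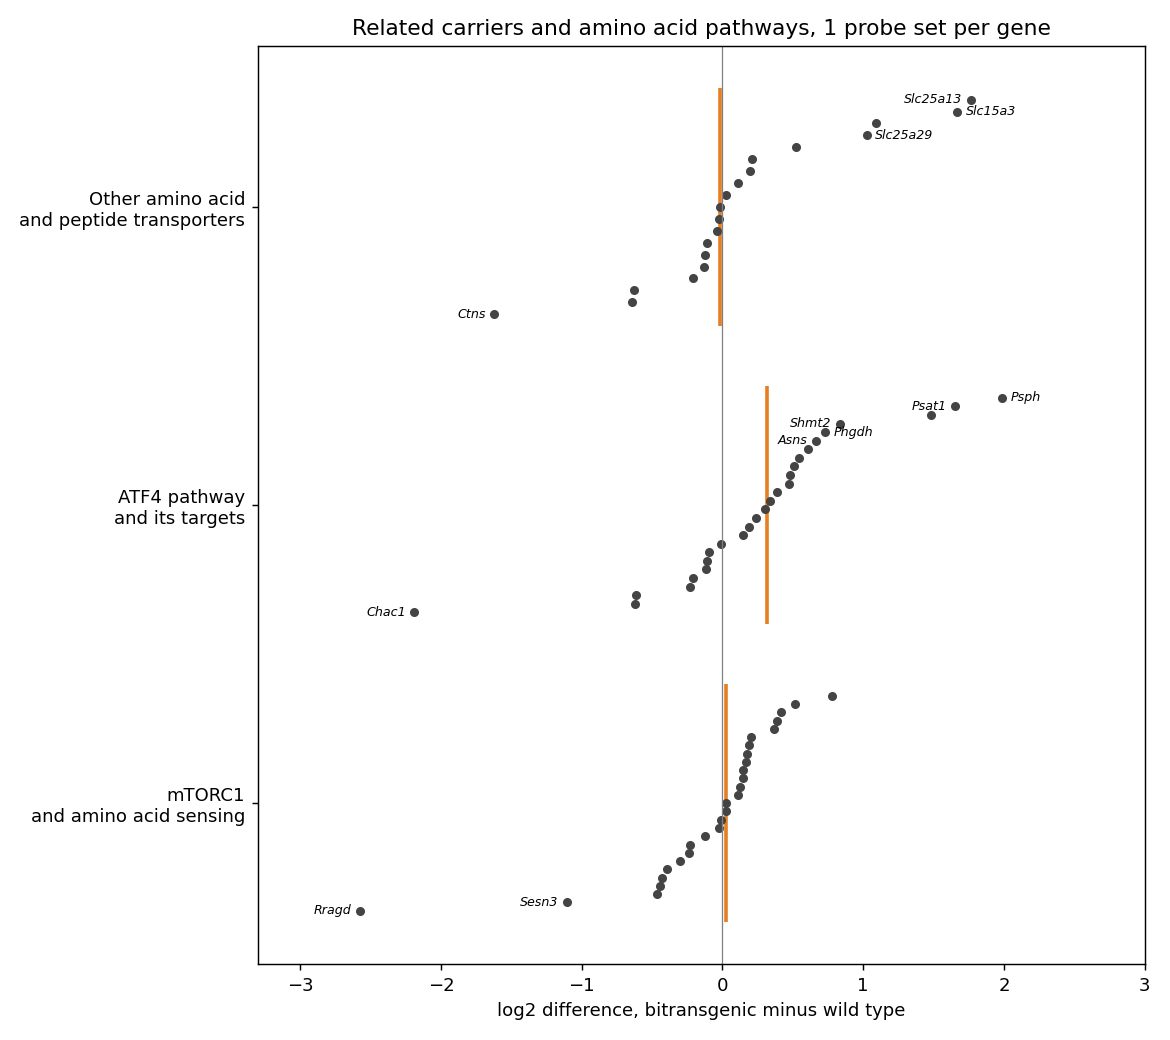
Log2 differences (bitransgenic minus wild type, horizontal axis) of 19 other amino acid and peptide carriers, 26 genes of the ATF4 pathway and 27 genes of mTORC1 and amino acid sensing, 1 point per gene, with genes at an unadjusted p under 0.05 named and list medians as bars. The medians are -0.015, 0.32 and 0.027, and no gene passed the test over all probe sets.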

How the data were processed

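Probe set signals were deposited by the authors as intensities on a linear scale. The submitters' processing notes name MAS5 and affy, with no version or order. After trimming 2% of probe sets from both ends every array averaged about 500, so values are relative to the rest of their array and a shift in RNA content of whole cells is not visible. No detection calls were used. Gene symbols came from the platform annotation and matched RefSeq (GRCm38.p6) by Entrez identifier for all 120 probe sets. A further 1 probe set with several symbols was left out.

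Signals were taken as log2(signal + 16), with no normalization between arrays, and 45037 probe sets (64 controls left out) were fitted with limma 3.58.1 in R 4.3.3 (lmFit, eBayes with intensity trend; 2 residual and 4.32 prior degrees of freedom), with Benjamini-Hochberg adjustment over all of them. The pseudocount pulls differences of dim probe sets toward 0. The fit was tested on simulated data. Named probe sets were those passing with or without the filter, the 10 of smallest p, the 12 of highest mean and 11 fixed genes, each through its brightest probe set. Other members were named to account for the whole set, after their values were seen. Members, lists and tests were chosen with earlier results of these data known. Precision is limited by having 2 arrays per group.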

Additional observations from a re-analysis of the deposited data

How the results depend on the processing

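The count of transporter probe sets called was 0 higher and 0 lower with pseudocounts of 1 and 64, quantile normalization, equal array medians, no intensity trend, with the probe sets ending in _x_at and _s_at left out, and leaving out each array in turn (0 to 0). It was 1 lower with the signal filter and 1 lower with 1 probe set per gene, picked from those past the filter, Slc1a1 each time. With replicate number as a block it was 1 higher (Slc6a2, 1460129_at, adjusted p = 0.00772) and 3 lower (the 3 probe sets of Slc1a1, adjusted p of 0.0229, 0.0364 and 0.0492). Same-numbered arrays deviated together (correlation 0.336), but 2 pairs do not show that the numbers pair the animals, so the block rests on a shared number. Over all probe sets 20 were called higher and 58 lower, against 56 and 150 with the filter, 138 and 300 with the block, 98 and 206 with 1 probe set per gene, 42 and 94 with equal array medians, and 0 and 0 without the intensity trend or without wild type replicate 1. Leaving out bitransgenic replicate 1 gave 2 and 44, leaving out bitransgenic replicate 2 gave 6 and 80, and leaving out wild type replicate 2 gave 13 and 38. Leaving out an array leaves 1 array in its group, which is then assumed to vary like the other group, and the cause of the lost calls was not tested beyond this.

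Of 313 values of 27 named probe sets under alternatives, 301 kept their direction and their side of the threshold, 6 became calls in the settings named above and 6 turned direction. Slc3a2 was -0.013 under quantile normalization and ran from -0.097 to 0.14 when each array was left out. The ranges were -0.94 to 0.39 for Slc1a3, -0.94 to 0.13 for Slc38a10 (1456241_a_at) and -0.57 to 0.010 for Slc43a1, none of them called. The brightest probe set of Slc1a1 ran from -2.76 to -2.18 and that of Slc6a2 from 2.02 to 3.54. Signals below the filter limit what can be said of 42 of the 120 probe sets.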
